A study of Rattus norvegicus with 8 samples.

Results

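The members described are 5 rat miRNAs of liver and gut epithelium, taken by name from the 719 rat miRNAs on the array: rno-miR-122-5p, rno-miR-122-3p, rno-miR-192-5p, rno-miR-194-5p and rno-miR-193-3p (written below without the rat prefix). Exosomes were isolated from the serum of male, specific pathogen-free Wistar rats, and their RNA was hybridised to 8 single-colour Agilent arrays. The control group held 4 samples from sham-operated rats (replicates 1, 2, 3 and 4), and the group with reflux esophagitis (RE) held 4 samples (replicates 5, 8, 9 and 10). RE was induced surgically, with a catheter cuff at the duodenum and a ligature at the forestomach. The labels place RE at day 21, the chronic phase, and give no day for the controls, while the study describes the arrays as a whole as those of day 21. No statement was found that each serum came from a separate rat, so p-values measure the spread between these samples.

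MicroRNAs are short RNAs that guide silencing proteins to messenger RNAs, mainly through the seed, bases 2 to 8 from the 5′ end. miR-122 is made almost only by hepatocytes, where it is the most abundant miRNA, and it reaches the blood when hepatocytes are injured. miR-192, miR-194 and miR-215 are transcribed together from a pair of clusters and are typical of intestinal epithelium, liver and kidney, while miR-193 is expressed in many tissues, liver included. Serum RNA has no single source tissue, so fewer source cells, less RNA per cell and less release cannot be told apart.

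The mature sequences of all 5 members were found in RefSeq (GRCr8), and every probe was the exact reverse complement of part of its miRNA. They are shown 5′ to 3′ with the seed in capitals, together with miR-215 and miR-365-3p, which are encoded near members, because the results below turn on which relatives were detected.
miR-122-5p: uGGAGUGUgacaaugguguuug
miR-122-3p: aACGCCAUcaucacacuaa
miR-192-5p: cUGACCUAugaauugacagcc
miR-215: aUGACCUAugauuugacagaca
miR-194-5p: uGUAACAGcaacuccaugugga
miR-193-3p: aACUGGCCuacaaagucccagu
miR-365-3p: uAAUGCCCcuaaaaauccuuau

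Of the 643 array miRNAs with a RefSeq sequence, miR-192-5p shared its seed only with miR-215, and no other miRNA shared the seed of miR-122-5p, miR-122-3p, miR-194-5p or miR-193-3p. Counted from the 5′ end of miR-192-5p, miR-215 differed by C1A, A12U and C20A over the 21 positions they share. miR-193-3p is listed by RefSeq as miR-193a-3p.

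On GRCr8, miR-122-5p lies on chromosome 18 from 61028831 to 61028852 and miR-122-3p from 61028867 to 61028885, within a transcribed pseudogene. miR-192-5p lies on chromosome 1 from 212994232 to 212994252, and its hairpin is 100 bases from that of Mir194-2 on the same strand, with no other gene around either. miR-194-5p has a second copy, Mir194-1, on chromosome 13 from 99382730 to 99382751, within Iars2, an isoleucyl-tRNA synthetase gene, and 191 bases from the hairpin of miR-215. miR-193-3p lies on chromosome 10 from 65170370 to 65170391 within the gene Faul2, which also contains the hairpin of miR-365-3p, 13814 bases away. Only the span of each surrounding gene was used, so exon and intron were not told apart.

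Each miRNA had 20 spots on each array, for the members 10 spots of a shorter probe and 10 of a probe with 1 more base. The total signal that the authors' software gives per miRNA equalled the sum of those probes whose signal exceeded 3 times their error for 100% of the 1706 detected signals (within a relative tolerance of 0.001), and 0.1 is entered where no probe did. The signal of 1 miRNA can be compared between arrays, but not with that of another miRNA, since probes differ in brightness. Arrays differed in overall level: controls detected 212 to 232 miRNAs, and the numbers were 245, 229, 144 and 197 in RE replicates 5, 8, 9 and 10. The upper quartile (75th percentile) of the 144 miRNAs that every array detected ranged from 494 to 915 for controls, and in the same RE replicates it was 1052, 1080, 239 and 442. RE replicate 9 therefore stood apart, and results are given with and without it where it changed them. As markers of blood cells, red blood cell miR-451-5p, miR-144-3p and miR-16-5p and leukocyte miR-142-3p, miR-150-5p and miR-342-3p were detected on all 8 arrays. The log2 scaled sum of the 3 red blood cell miRNAs ranged from 4.03 to 4.98 in controls and from 3.75 to 4.80 in RE, and that of the leukocyte miRNAs from 1.27 to 1.58 and from 1.02 to 2.18. For the 3 platelet miRNAs (miR-126a-3p, miR-191a-5p and miR-223-3p) it ranged from 1.49 to 2.41 in controls and from 1.66 to 2.76 in RE. This sum was almost all miR-223-3p, with signals up to 4664 in controls and 7047 in RE. Those of miR-126a-3p reached 253 and 596, so the sum says little of the other platelet miRNAs. Of the 3, miR-191a-5p was detected on 4 control arrays and 2 of RE. The 4 striated muscle miRNAs (miR-1-3p, miR-133a-3p, miR-133b-3p and miR-206-3p) were all detected on every control array, and on RE replicates 5, 8, 9 and 10 the numbers detected were 4, 4, 1 and 3. Their sum ranged from 0.76 to 1.51 in controls and was 1.42, -0.13, -0.89 and 0.10 in the same RE replicates, so 3 of 4 RE samples lay below all controls, and 0 of the 4 miRNAs passed the test described below. The sum was mostly miR-133b-3p, with signals of 759 to 1507 in controls, where miR-206-3p, the next, reached 133. It thus describes that miRNA more than the 4 as a set. The part of blood cells and muscle in the members' signals was not tested.

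The members fell into 3 classes by detection. miR-192-5p was detected on all 8 arrays. miR-122-5p and miR-193-3p were each detected on 4 control arrays and on 3 arrays of RE, in both cases all but replicate 9. miR-122-3p was detected on 1 array, control replicate 2, and miR-194-5p on 0 arrays.

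**Figure D1:**
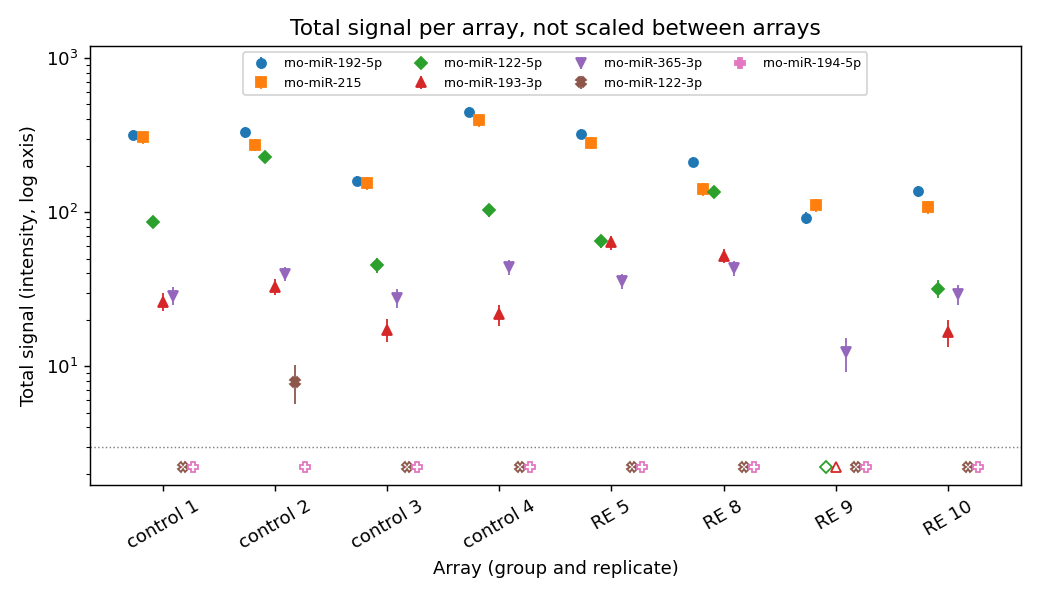
Total signal (intensity, log axis) of the 5 members, miR-215 and miR-365-3p on each of the 8 arrays, before any scaling, with the error of the authors' software as bars; open symbols under the dotted line mark arrays that did not detect the miRNA. miR-192-5p is present on all arrays, miR-122-5p and miR-193-3p are missing on RE replicate 9 only, and heights of different miRNAs cannot be compared.

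miR-122-5p, the hepatocyte miRNA, had the widest spread of the members among controls. Its total signal was 86.8, 228, 45.3 and 103 in control replicates 1, 2, 3 and 4, and 65.0, 135 and 31.9 in RE replicates 5, 8 and 10. The error given for these signals was between 8.27% and 13.2% of the value. Control replicate 2 was the highest and RE replicate 10 the lowest of the detecting arrays, and the groups overlapped.

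After division by the 75th percentile, the log2 signal of miR-122-5p was -2.75, -1.11, -3.62 and -3.15 in the controls and -4.02, -3.00 and -3.79 in RE replicates 5, 8 and 10. Controls averaged -2.66 ± 1.09 (SD, n = 4) and RE averaged -3.60 ± 0.53 (SD, n = 3). The SD among controls was the 11th highest of the 192 miRNAs tested, whose median was 0.49. All RE samples lay below the control mean, but RE replicate 8 lay above control replicates 3 and 4.

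With RE replicate 9 set to a floor (0.00350, the smallest scaled value among detected miRNAs), miR-122-5p did not pass limma's test (adjusted p = 0.870), nor the two-sided exact permutation test over the 8 samples (p = 0.0857). No fold is given for that comparison, because 1 of its 4 RE values is not a measured level. Without RE replicate 9 the log2 fold change was -0.83 (standard error 0.59, 95% confidence interval -2.12 to 0.47, adjusted p = 0.913 from limma, n = 4 against 3), with the arrays scaled again over the remaining 7. The interval includes no change. In RE replicate 10 only the longer probe entered the total, which lowers that value against the other detecting arrays, where both probes were summed.

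miR-122-3p, from the other strand of the same hairpin, gave a total signal of 7.94 in control replicate 2, with an error of 27.9%. That array also had the highest miR-122-5p. On the other controls the 17-base probe of miR-122-3p read 3.28, 0.944 and 5.24, and in RE it read 4.03, 5.17, -0.533 and 0.980, all below 3 times their error. A level of miR-122-3p in RE was not measurable at this signal.

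miR-192-5p, of gut epithelium, liver and kidney, had a total signal of 316, 330, 160 and 447 in control replicates 1 to 4. In RE replicates 5, 8, 9 and 10 it was 321, 213, 91.8 and 136. RE replicates 9 and 10 were below all controls, and RE replicates 5 and 8 lay within the control range. The error of each value was between 7.57% and 8.74%.

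On the scaled log2 scale miR-192-5p was -0.89, -0.58, -1.80 and -1.03 in controls and -1.71, -2.34, -1.38 and -1.70 in RE. Controls averaged -1.08 ± 0.52 (SD, n = 4), against -1.78 ± 0.40 (SD, n = 4) for RE. All 4 RE samples lay below the control mean, and RE overlapped the controls through control replicate 3 alone. Scaling moved RE replicate 9 from the lowest of the 8 arrays to the highest of RE.

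miR-192-5p had a log2 fold change of -0.71 with a standard error of 0.36 (limma, adjusted p = 0.870), or 1.63-fold lower, with a 95% confidence interval of the RE to control quotient from 0.346 to 1.08. The two-sided exact permutation test gave p = 0.114, where 0.0286 is the smallest p that 4 against 4 allow. Leaving out RE replicate 9 gave -0.73, so this value did not rest on it.

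**Figure D2:**
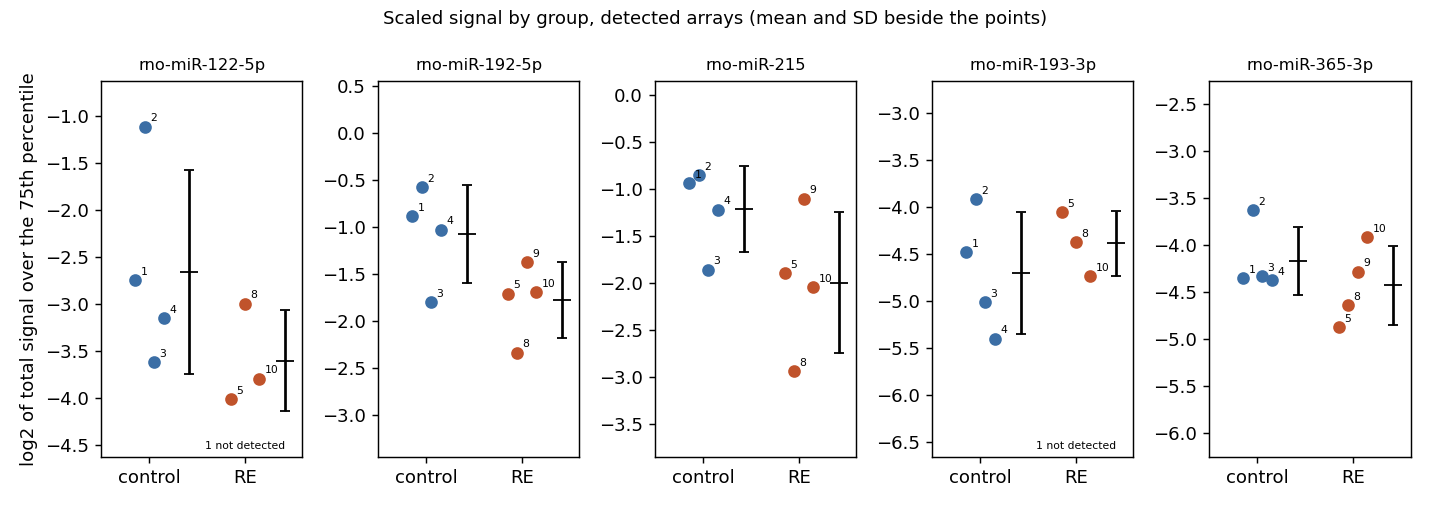
Log2 of the total signal over the 75th percentile for miR-122-5p, miR-192-5p, miR-215, miR-193-3p and miR-365-3p, each point 1 array marked by its replicate number, with the mean and SD of the detecting arrays beside the points; every panel spans 4 log2 units. RE lies below the control mean for miR-122-5p and miR-192-5p on all detecting arrays, with overlap between the groups.

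miR-215, the seed partner of miR-192-5p from the other cluster, followed it closely from array to array. Its total signal was 305, 274, 154 and 394 in controls and 283, 141, 112 and 107 in RE. The log2 fold change of miR-215 came to -0.78 with a standard error of 0.44 (limma, adjusted p = 0.870), and 3 of 4 RE samples were below the control mean. Over the 8 arrays the scaled log2 signals of miR-192-5p and miR-215 had a Pearson correlation of 0.94, the highest of the 143 other miRNAs detected on all arrays, whose median was 0.32. Next were miR-140-3p with 0.90 and miR-30d-5p with 0.90, and all points share their array's scaling factor.

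The 19-base probe of miR-192-5p had 2 mismatches to miR-215, and the 19-base probe of miR-215 had 3 to miR-192-5p. How far either probe binds the other miRNA was not tested. The log2 quotient of miR-215 to miR-192-5p, which needs no scaling, lay between -0.27 and -0.05 in controls and was -0.18, -0.59, 0.28 and -0.34 in RE replicates 5, 8, 9 and 10. RE replicate 5 lay within the range of the controls, replicates 8 and 10 below it and replicate 9 above it.

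miR-194-5p, which is encoded beside both miR-192 and miR-215, was not detected on any array, although both neighbours were detected on all 8. Its probes are shown 5′ to 3′ beside those of miR-122-5p and miR-193-3p, because the signals given next were read from them. The capital marks the base that only the longer probe has.
miR-194-5p, 16 bases: tccacatggagttgcT
miR-122-5p, 20 bases: caaacaccattgtcacactC
miR-193-3p, 17 bases: actgggactttgtaggC

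The 16-base probe of miR-194-5p read 0.791, -0.448, 1.09 and 3.28 in controls and 2.87, 2.69, -1.12 and 0.346 in RE, with errors between 2.06 and 2.79. The 15-base probe was below 0 on all 8 arrays. Averaged over the spots of both probes, miR-194-5p had between -1.96 and 2.35 per array, where the negative control spots had means between 1.27 and 2.83 and SDs between 2.90 and 3.91. The signal of miR-194-5p was thus at the level of the negative controls in both groups.

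Of the 296 miRNAs whose longest probe had 16 bases or fewer, 38.2% were detected on at least 1 array, against 39.2% of the 423 with longer probes. The opposite arms miR-192-3p, miR-194-3p, miR-193-5p and miR-365-5p were also detected on 0 arrays. The planned quotient of miR-192-5p to miR-194-5p could therefore not be formed.

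For miR-192-5p the 19-base probe was between 2.05 and 2.53 times the 18-base probe on all 8 arrays. For miR-122-5p the 20-base probe was 3.01, 3.69, 3.25 and 4.46 times the 19-base probe in controls, and 5.93 and 4.96 times in RE replicates 5 and 8. From array to array the quotient thus varied over a wider range for miR-122-5p than for miR-192-5p, as a description with no test. The shorter probe of miR-122-5p was the dimmer: in RE replicate 5 it read 9.39 with an error of 2.47. That of miR-192-5p read 101 with an error of 10.4 there. The part of such errors in the wider range was not tested.

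In RE replicate 10 the 19-base probe of miR-122-5p read 7.29 and did not enter the total. In RE replicate 9 the 20-base probe read 7.85 with an error of 2.90, or 2.71 times its error, just under the 3 times that counts as detected, and the 19-base probe read 3.58. On this array, the one with the lowest overall level, miR-122-5p thus missed detection narrowly with its longer probe and by more with its shorter one. With the longer probe of each miRNA as the signal on all 8 arrays, an alternative chosen after seeing the data, miR-122-5p did not pass either (limma, adjusted p = 0.995, standard error of the log2 fold change 0.60).

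**Figure D3:**
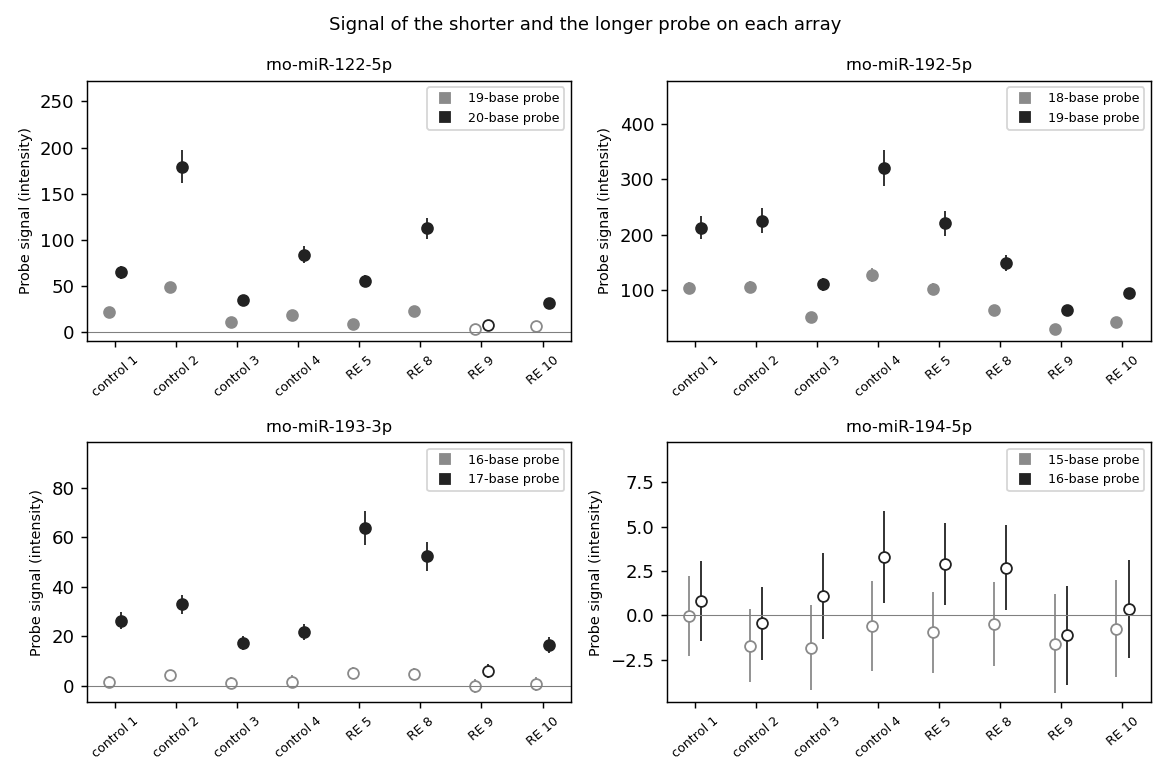
Signal of the shorter (grey) and the longer (black) probe of miR-122-5p, miR-192-5p, miR-193-3p and miR-194-5p on each array, as intensity with the software's error as bars; open symbols did not exceed 3 times their error. The longer probe of miR-193-3p carries its whole signal, and no probe of miR-194-5p exceeded 3 times its error on any array.

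miR-193-3p was carried by its 17-base probe alone, since the 16-base probe read between -0.149 and 5.23 and passed on 0 arrays. Its total signal was 26.2, 32.8, 17.3 and 21.7 in controls and 63.6, 52.3 and 16.6 in RE replicates 5, 8 and 10. RE replicates 5 and 8 were above all controls and replicate 10 was below all of them. In RE replicate 9 the 17-base probe read 5.95 with an error of 2.86.

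After scaling miR-193-3p was -4.48, -3.91, -5.01 and -5.40 in controls and -4.05, -4.37 and -4.73 in RE replicates 5, 8 and 10. The averages were -4.70 ± 0.65 (SD, n = 4) for controls and -4.38 ± 0.34 (SD, n = 3) for RE, and the 3 RE values lay within the control range. RE replicates 5 and 8 also had the highest 75th percentiles of all arrays.

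With replicate 9 at the floor miR-193-3p did not pass (limma, adjusted p = 0.916, and p = 0.771 by the two-sided exact permutation test). When that array was left out its log2 fold change was 0.43 with a standard error of 0.43 (95% confidence interval -0.52 to 1.38, adjusted p = 0.913 from limma, n = 4 against 3). The direction of miR-193-3p thus depended on 1 array.

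miR-365-3p, from the same gene as miR-193-3p, had a total signal of 28.6, 39.9, 27.7 and 44.0 in controls and 35.8, 43.3, 12.3 and 29.3 in RE. Between RE and control it had a log2 fold change of -0.26 with a standard error of 0.33 (limma, adjusted p = 0.912). The log2 quotient of miR-193-3p to miR-365-3p was -0.13, -0.28, -0.68 and -1.02 in controls and 0.83, 0.27 and -0.82 in RE replicates 5, 8 and 10. The quotient thus varied within both groups, and the difference of the means was 0.62 (two-sided exact permutation test, p = 0.257, n = 4 against 3). That difference was 0.25 without RE replicate 5 and 1.08 without RE replicate 10. On these arrays the signal errors were 10.7% to 19.4% for miR-193-3p and 10.3% to 15.1% for miR-365-3p. The part of these errors in the variation of the quotient was not tested.

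Quotients within an array compare members without any scaling. The log2 quotient of miR-122-5p to miR-192-5p was -1.86, -0.54, -1.82 and -2.12 in controls and -2.30, -0.66 and -2.10 in RE replicates 5, 8 and 10. Control replicate 2 and RE replicate 8 stood high in their groups and the remaining 5 arrays lay close together, so the 2 miRNAs did not move as 1 unit. The difference of RE to control was -0.10 (two-sided exact permutation test, p = 0.83, n = 4 against 3). In RE replicate 10 the quotient rests on the longer probe of miR-122-5p alone, which lowers it.

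For miR-193-3p to miR-192-5p the log2 quotient was -3.59, -3.33, -3.21 and -4.37 in controls and -2.34, -2.03 and -3.04 in RE. Every detecting RE array was above every control, a difference of 1.16. The two-sided exact permutation test gave p = 0.0286, the smallest that 4 against 3 allow, and 0.114 after adjustment over the 4 quotients tested. The separation leaves out RE replicate 9, on which miR-193-3p was not detected, so it is not shown for RE as a whole. This quotient, like the 2 with miR-215 and miR-365-3p, was chosen after the values were seen. Among 176 miRNAs set against miR-192-5p on these 7 arrays, 8 (4.55%) had all RE arrays above all controls. With the longer probes on all 8 arrays the difference was 0.78 (exact permutation test, p = 0.200), but the miR-193-3p signal of replicate 9 that enters it was below 3 times its error and is no measured level.

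**Figure D4:**
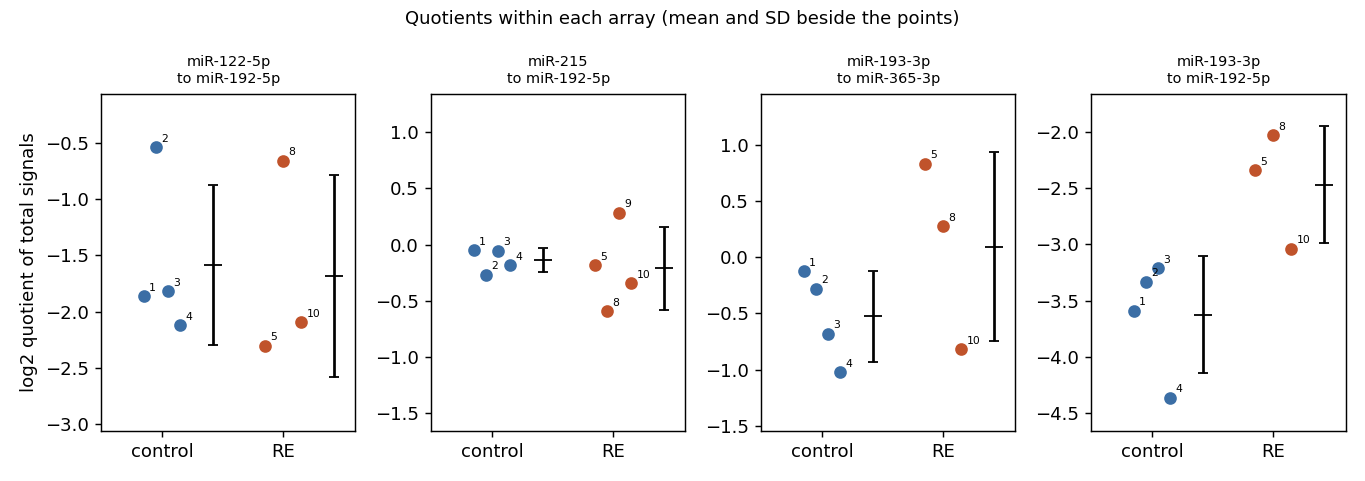
Log2 quotients of 2 total signals within each array, each point 1 array marked by its replicate number, with the mean and SD beside the points; every panel spans 3 log2 units, and only arrays that detected both miRNAs are shown. The detecting RE arrays, without replicate 9, lie above the controls for miR-193-3p to miR-192-5p, and RE overlaps the controls in the other 3 panels.

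Of the 3 members that could be tested, 0 passed an adjusted p under 0.05, where 2 of all 192 miRNAs tested did (1.04%), both lower in RE. At an unadjusted p under 0.05, 0 of the 3 members and 5 of the 192 (2.6%) passed. The groups did not overlap for 0 of the 3 members and for 3 of the 192 (1.56%). The fitted log2 fold change, with undetected arrays at the floor, was below 0 for the 3 members (for miR-193-3p only with RE replicate 9 included) and for 156 of the 192 (81.2%), whose median was -0.29. RE replicate 9 detected only the 144 miRNAs that every array detected. All other tested miRNAs, miR-122-5p and miR-193-3p included, therefore entered that array at the floor, which favours fitted values below 0. With the test limited to the 144, the median was -0.19 and 0 passed. For miR-192-5p, the member measured on all arrays, 51 of the 192 had a lower fitted value.

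**Figure D5:**
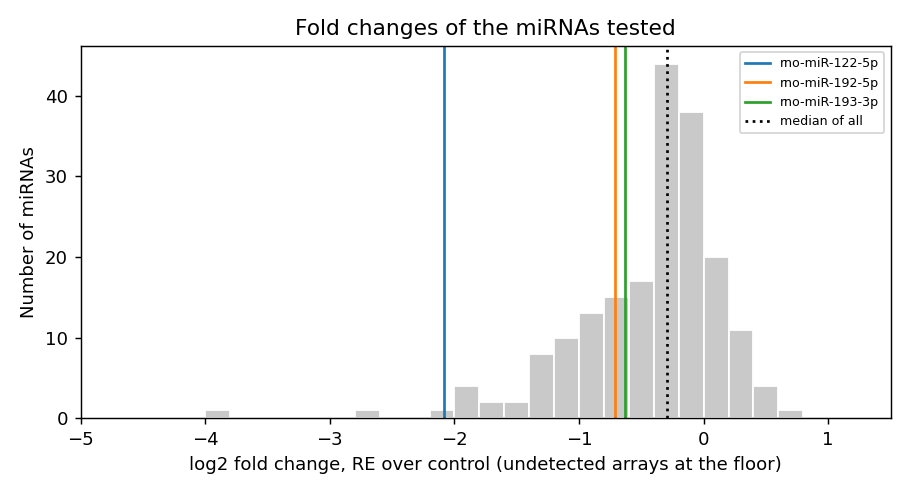
Number of miRNAs by log2 fold change of RE over control for the 192 miRNAs tested (undetected arrays at the floor), with lines at miR-122-5p, miR-192-5p, miR-193-3p and the median of -0.29. The line of miR-192-5p lies left of the median, and those of miR-122-5p and miR-193-3p each include 1 undetected array, without which their values were -0.83 and 0.43.

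Related miRNAs of liver and gut epithelium were detected about as often as the array's miRNAs in general. A list of 22 hairpins or arms, fixed with earlier results of these data known, matched 33 rat miRNAs on the array. For miR-148a and miR-193b no rat miRNA of that name was found there. Of the 33, 4 were detected on all arrays, 9 on some and 20 on none, so 39.4% were detected on at least 1 array, against 38.8% of all 719. The median log2 fold change of the 6 that were tested was -0.52, against -0.29 for all 192. Below 0 were 4 of the 6 (81.2% of the 192), and 0 of the 6 passed the test (1.04% of the 192). Among the 6, miR-101a-3p and miR-101b-3p each include an undetected RE array at the floor and so give no measured fold. The 4 detected on all arrays had -0.78 (miR-215), -0.26 (miR-365-3p), 0.04 (miR-10a-5p) and 0.19 (miR-10b-5p). The list includes miR-122-3p, miR-215, miR-365-3p and the undetected opposite arms, described above.

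Among intestinal and other epithelial miRNAs, miR-200b-3p, miR-200c-3p and miR-429, which maintain the epithelial state, were detected on 0 arrays. miR-200a-3p and miR-141-3p of the same family were detected on 0 control arrays and 2 of RE, with signals up to 9.95 and 13.6, while miR-200a-5p was detected on 3 controls and 1 of RE, with signals up to 9.59. miR-375-3p, of pancreatic islets and gut, was detected on 2 controls and 0 of RE, and miR-203a-3p, of squamous epithelium, on 3 controls and 2 of RE. miR-31a-5p was detected on 1 control, at 9.23, and on 2 arrays of RE, at 13.8 and 29.5.

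Of the list's other miRNAs, miR-10a-5p and miR-10b-5p, which are encoded in the Hox clusters, were detected on all arrays with log2 fold changes of 0.04 ± 0.36 (standard error) and 0.19 ± 0.35, and limma gave adjusted p = 0.969 and 0.927. miR-101a-3p and miR-101b-3p, abundant in liver among other tissues, were detected on 4 controls and 3 arrays of RE and did not pass (adjusted p = 0.912 from limma for each). Of the 6 markers of gut epithelium, which include miR-192-5p, miR-194-5p and miR-215, 2 were detected on all arrays and 3 on none. Their log2 scaled sum ranged from -0.83 to 0.29 in controls and from -1.61 to -0.23 in RE, and it is almost all miR-192-5p and miR-215.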

How the data were processed

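RNA from serum exosomes of 8 samples, 4 control and 4 RE, was measured on 1 array each. The deposited files hold intensity values made by the authors with Agilent Feature Extraction 10.10.1.1 on the rat miRNA array of release 19.0, background-subtracted, with no scaling between arrays. On each of the 8 arrays the separate deposited table held the same processed spot signals (tolerance 1e-06). Whether the arrays shared a slide or a scan was not examined.

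Total signals were scaled to an array's own 75th percentile, calculated from the 144 miRNAs present throughout, floored at 0.00350 and taken to log2. Testing with limma 3.58.1 in R 4.3.3 covered the 192 miRNAs that were detected in every sample of either group, with Benjamini-Hochberg adjustment at 0.05. This replaces the methods' scaling over all miRNAs, whose percentile is 0.1 in RE replicate 9. Exact permutation tests were two-sided, over samples. Single values were handled in Python 3.11.15 with pandas 2.3.3 and numpy 2.4.6, and figures in matplotlib 3.10.9. The fit was tested on simulated data. Precision is limited by there being 4 arrays a group, and the median standard error was 0.48.

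Named are the members, the opposite arms, the list's miRNAs detected on all arrays and the 3 miRNAs most correlated with a member detected on all arrays. The list's other miRNAs were named after their values were seen. The members, lists and tests were chosen with earlier results of these data known. Alternatives covered signal, background, scaling, floor, filter, variance model, test and each array left out.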

Additional observations from a re-analysis of the deposited data

Results flagged for a closer look

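miR-365-3p in control replicate 2 was -3.63 on the scaled log2 scale, where the nearest control was -4.33, a gap of most of the range of the 4 controls. It was the only 1 of 12 groups of 4 samples compared in this way that stood apart, and chance marks about 1 group in 20, or 0.6 here.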

How the results depend on the processing

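No paired analysis was possible because the replicate numbers of the 2 groups are not shared. No alternative called a member (adjusted p from 0.153 to 1 with miR-122-5p, miR-192-5p and miR-193-3p), and the log2 fold change of miR-122-5p stayed below 0 in its 25 alternatives, all but 1 of which enter a floor or a signal near background for RE replicate 9 and so give no measured fold (-0.83 without that array). For miR-193-3p too, all alternatives but the 1 without RE replicate 9 enter such a value and so give no measured fold. The log2 fold change of miR-192-5p ranged from -0.95 to -0.52 with 1 array left out and turned to 0.99 only under the methods' scaling, where the median of all tested miRNAs was 1.39 (miR-215 0.92, miR-365-3p 1.44). Its size depended on the scaling: -0.49 with median scaling, -0.51 with quantile normalization, -0.52 with the summed signal and -0.78 with no scaling. That of miR-193-3p turned above 0 with normexp (0.12), the methods' scaling (0.30), array quality weights (0.29), the authors' value table (0.015) and the longer probe (0.12), and ranged from -1.05 to 0.43 with 1 array left out, highest without RE replicate 9. miR-365-3p also turned with normexp (0.0014). The quotient of miR-122-5p to miR-192-5p turned with the mean processed signal (0.0082) and normexp (0.14), and ranged from -0.62 to 0.25 with 1 array left out (0.25 without control replicate 2, 0.21 without RE replicate 5, 0.11 without RE replicate 10). That of miR-215 to miR-192-5p ranged from -0.24 to 0.056 with 1 array left out, above 0 without RE replicate 8 only. That of miR-193-3p to miR-365-3p ranged from 0.25 to 1.08 with 1 array left out. That of miR-193-3p to miR-192-5p ranged from 0.91 to 1.44 with 1 array left out (exact permutation test, p from 0.0667 to 0.133) and was 0.63 with normexp (p = 0.0857). With 1 array left out that test cannot give a p under 0.05, so those p-values do not show whether the difference weakened. The count of called miRNAs was 0 with the mean processed signal, normexp, the methods' scaling, the filter to all 8 arrays, the authors' value table and the longer probe (limma, where 5 passed an unadjusted p under 0.05 in the reported setting). It was 1 with no scaling, the summed signal, no filter, eBayes with trend and robust, and the methods' t-test and analysis of variance with Benjamini-Hochberg or Bonferroni adjustment, 3 with array quality weights, and between 1 and 2 with 1 array left out. miR-122-3p and miR-194-5p had no value to recompute. Causes of these changes were not tested. Signals near 3 times their error limit what can be said of miR-122-3p, miR-194-5p and RE replicate 9.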
